A study of Mus musculus with 81 samples.

Results

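Bone marrow-derived macrophages (BMDMs) lacking the histone variant H3.3 were compared after culture with an antibody against IFNAR1 or with a control antibody. The comparison takes all libraries of the antibody experiment that are H3.3 cKO and were given either antibody, which is 6 of the 81 RNA-seq libraries of the series, 3 with IFNAR1 antibody and 3 with control antibody. The other 12 libraries of the antibody experiment are used beside them, 3 of cKO cells that had neither antibody and 9 of WT cells, 3 in each condition. The question posed by the study was whether the interferon-stimulated genes (ISGs) that are high in cKO cells need signalling through the receptor of type I interferon.

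Both antibody groups are H3f3a fl/fl and H3f3b fl/fl and also carry LysM cre/cre, so that both genes encoding H3.3 carry loxP sites and are deleted by a Cre recombinase driven from the lysozyme locus Lyz2. Cre sits in both copies of Lyz2, so the cKO cells also lack the product of that gene. The WT cells carry the same floxed genes without cre. The Cre acts as myeloid cells mature, and cells that escaped deletion would remain in the libraries. Bone marrow cells of both genotypes were grown in medium conditioned by L929 cells, with a mouse monoclonal IFNAR1 antibody or a mouse monoclonal IgG1 κ isotype control present from the start and renewed at intervals. Libraries are labelled as biological replicates, without a record of which animal each came from. Because whole cultures were sequenced, fewer cells of a type and less RNA per cell cannot be told apart.

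Type I interferons, the interferon-α and interferon-β proteins, bind a receptor made of IFNAR1 and IFNAR2. The kinases JAK1 and TYK2 on its inner side phosphorylate STAT proteins such as STAT2, which join IRF9 to form the factor ISGF3, and ISGF3 binds the interferon-stimulated response element in the promoters of ISGs. Among the products of ISGs are STAT2, IRF9 and IRF7 themselves, so the pathway can raise its own components, and resting macrophages are known to keep a low level of this signalling without infection.

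The libraries had 34380735, 5295144 and 8985646 counts on genes with control antibody (replicates 1 to 3) and 17600897, 12071734 and 9856082 with IFNAR1 antibody. The other arms ranged from 10955509 to 27295864. Levels are given below as CPM, the counts of a gene scaled to a common total of counts on genes with edgeR's TMM factors. H3f3a, the smaller of the 2 H3.3 transcripts by count, was at 5.97, 6.33 and 6.64 CPM with control antibody and at 11.03, 4.72 and 5.43 CPM with IFNAR1 antibody, against a mean of 36.3 ± 0.74 CPM (SD, n = 3) in WT with control antibody. H3f3b was at 41.3, 67.8 and 40.3 CPM and at 40.1, 48.9 and 16.7 CPM, against 375 ± 28.1 CPM in WT with control antibody, so the deletion showed in all 6 libraries. The sum over 16 macrophage markers was between 5763 and 7126 CPM with control antibody and between 7697 and 8142 CPM with IFNAR1 antibody. In WT with control antibody it was between 29713 and 29939 CPM, a sum that includes Lyz2, the gene that carries the Cre. Adgre1, which encodes F4/80, was between 780 and 874 CPM with control antibody and between 898 and 1095 CPM with IFNAR1 antibody.

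The libraries of a group were not all alike. On the component that carried 44.6% of the variance among the 18 libraries, cKO IFNAR1 replicate 1 was at -73.4 and the other IFNAR1 replicates at 21.4 and 25.02. The genes that set this library apart, chosen after their values were seen, included Hspa1b, a heat shock protein, with 114 CPM against 1.65 and 1.24 CPM, and Gadd45b, a stress-induced gene, with 288 against 13.4 and 9.34 CPM. Trem1, an activating receptor of myeloid cells, was at 1.46 CPM there against 81.2 and 84.0 CPM.

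With IFNAR1 antibody, 692 of 17191 genes tested changed against control antibody (4.03%) by edgeR's quasi-likelihood test with Benjamini-Hochberg adjustment. Of these, 290 fell (1.69%) and 402 rose (2.34%). Among the genes that fell were antiviral Oas genes, the signalling factors Stat2 and Irf9, Slfn5 and members of the Ifi200, Ly6 and guanylate-binding families. Among those that rose were genes of mitosis, early growth response factors, chemokines and scavenger receptors. At least 4-fold changes were met by 147 of the genes that fell and by 90 of those that rose. Of the 290 genes that fell, 289 were lower without overlap of the arms, where 14.5% of all genes were. Of the 402 that rose, 400 were higher without overlap, where 14% of all genes were. A call itself favours such separation. The median log2 fold change of all genes tested was 0.01.

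**Figure D1:**
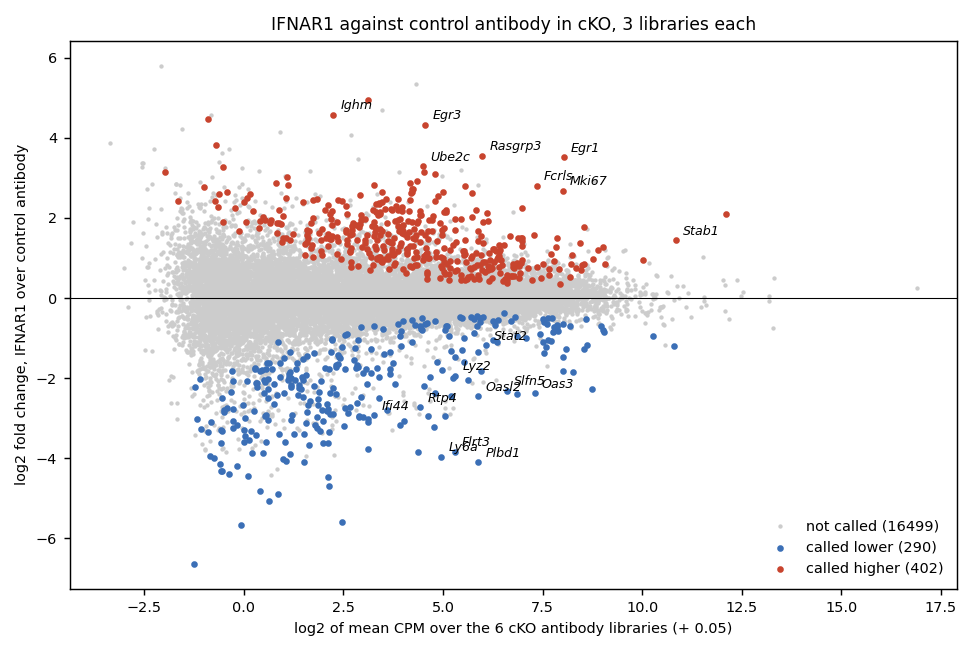
Log2 fold change with IFNAR1 antibody over control antibody in cKO BMDMs against the log2 of the mean CPM, one point per gene tested (17191). Blue points are the 290 genes that fell, red points the 402 that rose and grey points those without a call, and 147 blue against 90 red points lie at least 2 log2 units from 0.

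Ifnar1 itself, which encodes the target of the antibody, was at 167, 178 and 195 CPM with control antibody and at 250, 198 and 197 CPM with IFNAR1 antibody. The arms did not overlap, and the log2 fold change of 0.25 ± 0.12 (SE) did not pass the test (edgeR adjusted p = 0.279). Ifnar2, the other chain of the receptor, had overlapping values and a log2 fold change of 0.21 (edgeR adjusted p = 0.463). The transcripts of the ligands were close to absent. Of 21 interferon genes only Ifnk passed the filter on low counts, and the sum over all 21 lay between 0.18 and 0.52 CPM with control antibody and between 0.63 and 0.67 CPM with IFNAR1 antibody, with 16 of the 21 at 0 in all libraries of either arm.

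Of 15 genes of the receptor and of JAK-STAT signalling, 2 fell and none rose, against 1.69% and 2.34% of all genes, and their median log2 fold change was 0.03. The number that fell was 0 without control replicate 2, 2 without control replicate 3 and 1 without each of the other libraries. Both genes that fell encode parts of ISGF3. Stat2 was at 101, 113 and 70.01 CPM with control antibody and at 48.8, 37.9 and 37.8 CPM with IFNAR1 antibody. Every IFNAR1 library was below every control library, with a log2 fold change of -1.18 ± 0.21 (SE, edgeR adjusted p = 0.010). Irf9, the DNA-binding partner of STAT2 in ISGF3, went from 71.8, 67.9 and 44.6 CPM to 35.8, 30.1 and 27.2 CPM, also without overlap (log2 fold change -0.99, edgeR adjusted p = 0.027). Stat2 lost its call without control replicate 2 (edgeR adjusted p = 0.060), and Irf9 kept its call only without control replicate 3, with edgeR adjusted p from 0.065 to 0.109 in the other 5 fits with a library left out. The kinase genes Jak1 and Tyk2 had log2 fold changes of -0.10 and 0.19 and no call.

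None of the 8 interferon regulatory factor genes tested passed the test, against 1.69% of all genes that fell and 2.34% that rose. Their median was -0.01. Without IFNAR1 replicate 3, 1 of them rose. Irf7, which drives the later wave of interferon-α genes, had 110, 94.3 and 38.4 CPM with control antibody and 55.0, 17.9 and 12.3 CPM with IFNAR1 antibody. These ranges overlap through control replicate 3 and IFNAR1 replicate 1 (log2 fold change -1.50 ± 0.57, edgeR adjusted p = 0.153). Irf8, a factor of macrophage development, was between 212 and 249 CPM and between 241 and 307 CPM, with no call.

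The Oas, Ifit and Mx genes and their relatives encode the direct antiviral effectors. The Oas proteins sense double-stranded RNA and make a messenger that activates RNase L, the Ifit proteins bind foreign RNA ends, and Mx proteins are GTPases that trap viral particles. Of 31 members tested 7 fell and none rose, against 1.69% of all genes that fell. Their median log2 fold change was -0.34, with 22 of 31 below 0, and 11 were lower without overlap of the arms, where 14.5% of all genes were.

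Ifi44, an interferon-induced gene that the study follows by name, was at 20.5, 23.1 and 7.26 CPM with control antibody and at 3.17, 1.42 and 2.002 CPM with IFNAR1 antibody. Control replicate 3 was the lowest of its arm and still above every IFNAR1 library (log2 fold change -2.93 ± 0.63, edgeR adjusted p = 0.021). Oasl2, an Oas-like gene, was at 120, 117 and 63.4 CPM and at 27.8, 13.1 and 13.6 CPM (log2 fold change -2.45 ± 0.52, edgeR adjusted p = 0.019). Oas3, a synthetase with high affinity for long double-stranded RNA, was at 319, 276 and 197 CPM and at 103, 25.1 and 24.3 CPM, with IFNAR1 replicate 1 above the other libraries of its arm. Its log2 fold change was -2.37 ± 0.49 (edgeR adjusted p = 0.019).

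The synthetase gene Oas1a fell from 48.8, 49.9 and 31.5 CPM to 20.04, 11.6 and 10.9 CPM (log2 fold change -1.61 ± 0.27, edgeR adjusted p = 0.0073). The remaining members that fell were Oas2, Oas1g and Oasl1, with log2 fold changes of -1.79, -1.78 and -1.35 (edgeR adjusted p = 0.037, 0.036 and 0.041). The Oas1 genes are close copies of each other in the mouse genome, so reads shared between them may be split or left uncounted.

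The promoters below are shown because these genes of the list hold the core of the interferon-stimulated response element, which is GAAA, any 2 bases and GAAA again, in the 250 bases before the start of transcription and have the lowest fold changes among those that do. Oas3, Oas1g and Oas1a fell, and Ifit1bl2 was not called. All lie on the minus strand and are written 5′ to 3′ on the strand of the gene up to the last base before the start, from RefSeq on GRCm38.p6, with the matches in capitals. Oas3 is at chr5:120777660-120777909, Ifit1bl2 at chr19:34640744-34640993, Oas1g at chr5:120887614-120887863 and Oas1a at chr5:120907526-120907775.
Oas3: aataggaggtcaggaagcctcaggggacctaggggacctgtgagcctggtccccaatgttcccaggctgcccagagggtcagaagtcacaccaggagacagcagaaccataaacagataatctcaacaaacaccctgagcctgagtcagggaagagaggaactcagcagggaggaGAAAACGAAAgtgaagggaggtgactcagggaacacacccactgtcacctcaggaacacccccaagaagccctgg
Ifit1bl2: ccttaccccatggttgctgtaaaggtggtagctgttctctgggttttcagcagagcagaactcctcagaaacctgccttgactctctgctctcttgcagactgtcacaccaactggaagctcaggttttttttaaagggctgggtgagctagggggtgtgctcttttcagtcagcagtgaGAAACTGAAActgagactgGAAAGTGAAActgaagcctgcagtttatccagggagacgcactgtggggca
Oas1g: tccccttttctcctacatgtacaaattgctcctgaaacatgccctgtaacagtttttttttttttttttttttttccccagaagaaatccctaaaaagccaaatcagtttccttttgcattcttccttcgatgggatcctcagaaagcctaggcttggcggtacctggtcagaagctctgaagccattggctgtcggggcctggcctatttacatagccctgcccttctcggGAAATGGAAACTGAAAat
Oas1a: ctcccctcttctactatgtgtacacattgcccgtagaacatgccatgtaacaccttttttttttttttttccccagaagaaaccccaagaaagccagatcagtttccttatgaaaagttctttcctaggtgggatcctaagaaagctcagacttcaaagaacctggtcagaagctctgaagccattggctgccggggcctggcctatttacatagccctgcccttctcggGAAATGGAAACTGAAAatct
In Oas1g and Oas1a the capitals are 2 matches that overlap, beginning 18 and 12 bases before the start in Oas1g and 20 and 14 bases before it in Oas1a. The single match of Oas3 begins 75 bases before the start.

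Searched on both strands, this core was present in 978 of 32851 RefSeq promoter windows of this length (2.98%). Counted by gene, it was in 3.46% of all genes that have a window and in 13 of the 23 Oas, Ifit and Mx genes that have one (56.5%). The match did not separate the genes of the list that fell from the rest. It was in 3 of 6 genes of the list that fell and in 10 of 17 without a call (58.8%). Over the whole comparison, among genes that have a window, it was in 11 of 200 genes that fell (5.5%), in 12 of 267 that rose (4.49%) and in 3.24% of genes without a call. The core of the gamma-activated site, TTCNNNGAA, was in 16 of the 200 genes that fell (8%) and in 8.13% of all genes that have a window. Ifi44, Oasl2 and Oasl1 have a window and no match to the response element core.

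**Figure D2:**
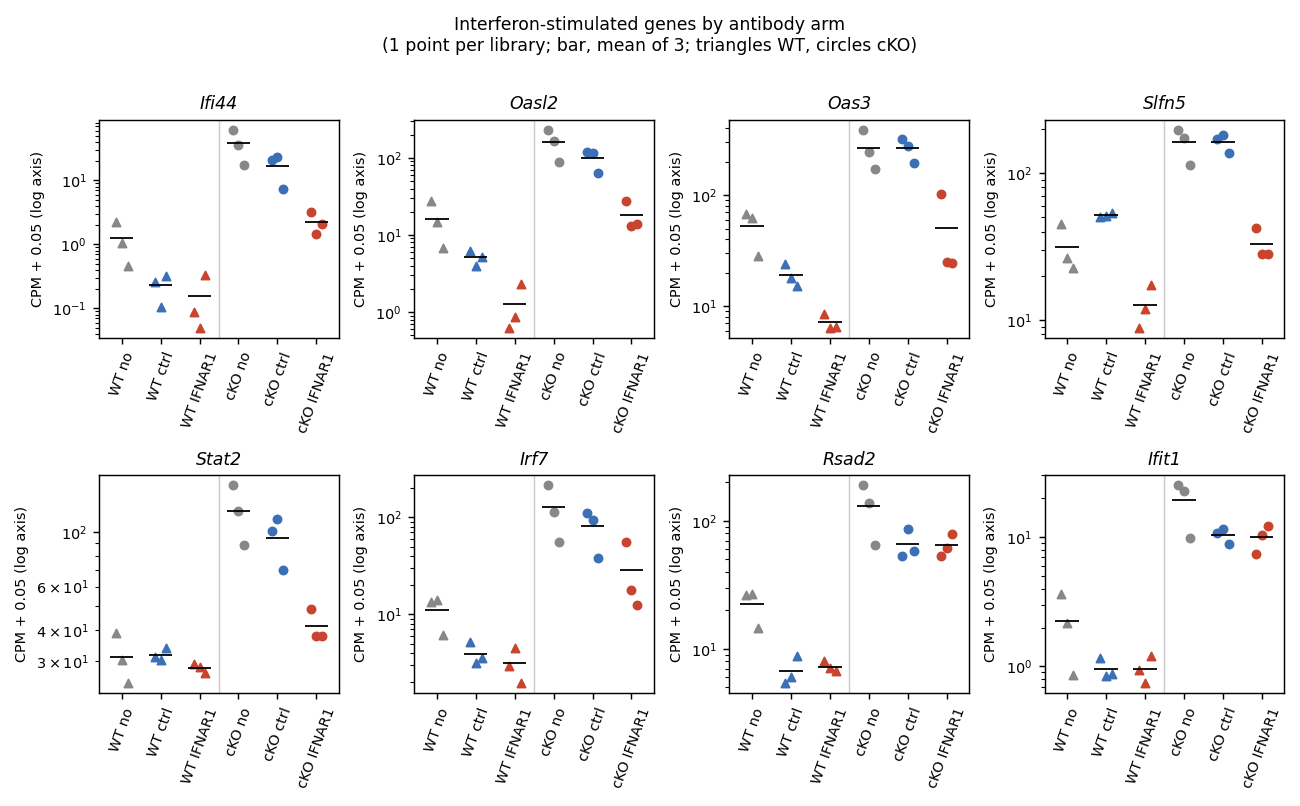
CPM on a log axis of 8 interferon-stimulated genes in the 18 libraries of the antibody experiment, 3 per arm (triangles WT, circles cKO, bars the mean of an arm; 0.05 CPM was added to each value so that 0 can be drawn). In Ifi44, Oasl2, Oas3, Slfn5 and Stat2 the 3 cKO libraries with IFNAR1 antibody lie below the 3 with control antibody, while in Rsad2 and Ifit1 they lie among them.

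Other members of the same list did not follow. Rsad2, which encodes viperin, was at 53.2, 85.8 and 58.2 CPM with control antibody and at 53.5, 61.1 and 79.4 CPM with IFNAR1 antibody. The arms overlap throughout, and the log2 fold change was -0.02 ± 0.33 (edgeR adjusted p = 0.982). Ifit1 was at 10.8, 11.6 and 8.82 CPM and at 7.42, 10.3 and 12.2 CPM. Ifit3, its binding partner, was at 12.7, 16.4 and 12.6 CPM and at 17.7, 8.26 and 13.2 CPM, so again no library order separates the arms. Mx1 and Cmpk2, the neighbour of Rsad2 on the chromosome, had log2 fold changes of 0.26 and 0.03, and Ifit2 had 0.80 (edgeR adjusted p = 0.342).

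The cKO cells without antibody give a further reference, and comparisons with them share the IFNAR1 or the control libraries used above. Rsad2 was at 189, 137 and 64.1 CPM there, Ifit1 at 25.1, 22.8 and 9.89 CPM, and Ifit3 at 66.0, 41.6 and 13.9 CPM. Replicate 3 was the lowest of each trio and within the range of the antibody arms, and none of these genes passed the test of IFNAR1 antibody against no antibody either (edgeR adjusted p = 0.720, 0.915 and 0.495).

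Among the Ifi200 genes, which encode DNA-binding proteins of the PYHIN family, 2 of 11 tested fell and none rose, against 1.69% and 2.34% of all genes (median log2 fold change -0.42). Ifi204 was at 93.8, 88.5 and 69.5 CPM with control antibody and at 40.5, 29.6 and 28.5 CPM with IFNAR1 antibody. The arms were apart, with a log2 fold change of -1.35 ± 0.28 (edgeR adjusted p = 0.019). Ifi209 fell from 39.6, 53.7 and 28.1 CPM to 12.999, 8.49 and 9.44 CPM (log2 fold change -1.96, edgeR adjusted p = 0.019). Neither passed the test without control replicate 2 or without IFNAR1 replicate 2, and Ifi209 alone did without control replicate 3. The median of the family was -1.09 without IFNAR1 replicate 1.

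In the Schlafen family, interferon-induced regulators of growth and of viral translation, 1 of 9 genes fell, against 1.69% of all genes, with a median of -0.82. This was Slfn5, at 170, 181 and 137 CPM with control antibody and at 42.1, 27.9 and 27.9 CPM with IFNAR1 antibody. Even the lowest control library was more than 3 times the highest IFNAR1 library in CPM, and the log2 fold change was -2.31 ± 0.29 (edgeR adjusted p = 0.0019). Its relative Slfn8 was at 39.1, 38.3 and 25.6 CPM and at 14.8, 12.7 and 14.3 CPM, without overlap and without a call (edgeR adjusted p = 0.103).

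Of the guanylate-binding proteins, GTPases that attack the vacuoles of intracellular pathogens, 2 of 8 fell, against 1.69% of all genes, and the median was -1.43. With any 1 of the 6 libraries left out none of the 8 fell, and the median was between -1.55 and -1.01. Gbp9 fell from 22.5, 20.4 and 16.7 CPM to 4.06, 6.998 and 5.15 CPM, and Gbp8 from 11.1, 10.7 and 8.51 CPM to 2.54, 4.56 and 3.34 CPM (edgeR adjusted p = 0.045 and 0.047). The arms did not overlap in either gene, and both lie in a cluster of near copies. In the fits with a library left out their edgeR adjusted p ranged from 0.073 to 0.163 for Gbp9 and from 0.065 to 0.180 for Gbp8. Gbp2 overlapped, at 10.1, 15.4 and 11.5 CPM and at 11.9, 12.3 and 11.4 CPM. None of the 11 immunity-related GTPases tested passed the test (median -0.42), against 1.69% of all genes that fell and 2.34% that rose. Irgm1 fell without IFNAR1 replicate 1. Rnf213, a large ubiquitin ligase induced by interferon, fell from 595, 566 and 409 CPM to 190, 225 and 231 CPM (log2 fold change -1.28 ± 0.27, edgeR adjusted p = 0.020). It was picked out because it also fell against no antibody.

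Several groups that are commonly counted as interferon-stimulated showed no call at all, against 1.69% of all genes that fell and 2.34% that rose. Groups this small may hold no call at these shares. These were the 5 genes of ISG15 conjugation (median -0.59), the 5 Ifitm genes (0.37), the 18 nucleic acid sensors tested (-0.11), the 13 Parp genes (-0.25) and the 23 genes of MHC class I and antigen processing (0.10). The last median was -0.37 without IFNAR1 replicate 1 and -0.02 without control replicate 3. With IFNAR1 antibody against no antibody, 2 of the 5 genes of ISG15 conjugation fell (median -1.34), against 0.14% of all genes. None of the other groups had a call there. Usp18, which removes ISG15 and dampens the receptor, was at 20.3, 21.9 and 12.7 CPM and at 8.75, 5.66 and 6.10 CPM without overlap (log2 fold change -1.41, edgeR adjusted p = 0.057). In B2m, the light chain of MHC class I, IFNAR1 replicate 1 stood above the rest, at 1320 CPM against 380 and 384 CPM in the other IFNAR1 libraries and between 667 and 869 CPM with control antibody.

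**Figure D3:**
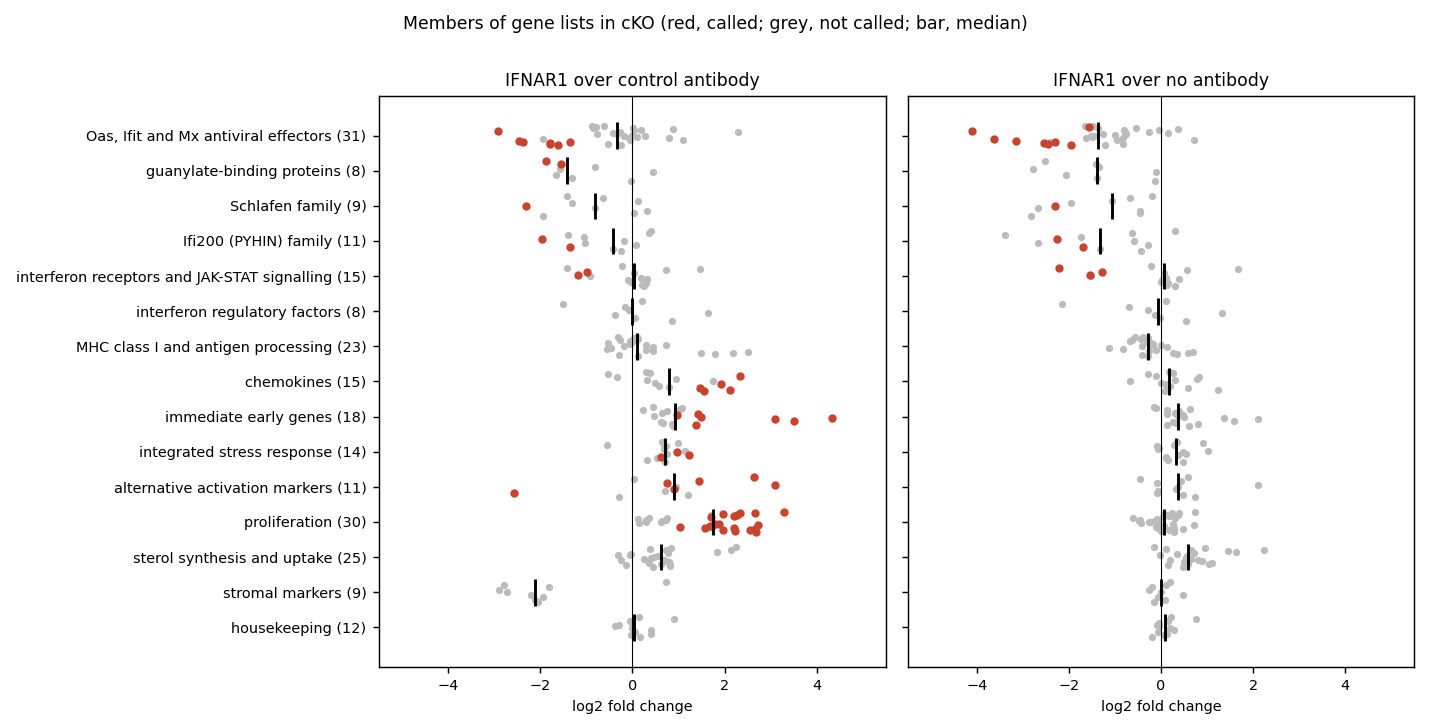
Log2 fold changes of the members of 15 gene lists in cKO BMDMs, with IFNAR1 antibody over control antibody (left) and over no antibody (right), one point per gene tested, red where the test was passed, bars at the list medians. Against control antibody the proliferation list has its median at 1.75 and 20 red points, and against no antibody it has a median of 0.06 and none, while the Oas, Ifit and Mx list has 7 and 8 red points below 0. Both panels share the IFNAR1 libraries.

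To see how the genes that define the cKO cells behaved, lists were drawn from other libraries of the series, namely the 3 further sets of WT and cKO BMDMs without antibody. Of 362 genes higher in cKO in each of these sets by a log2 fold change over 1, 269 were tested here, and 37 fell and 3 rose (median -0.62). Of 111 genes lower in cKO, 104 were tested, and 3 fell and 14 rose (median 0.45). The backgrounds are 1.69% for a fall and 2.34% for a rise over all genes. Where the list of higher genes was kept to a log2 fold change over 2 in cKO, 18 of 86 genes fell and none rose, with a median of -1.26. In WT, 3 of the 269 higher genes fell and 26 rose (median 0.14). Of the 104 lower genes 4 fell and 15 rose there (median 0.49), against 3.06% and 6.83% of all genes. The median log2 fold change of cKO over WT for the higher genes was 1.59 with control and 0.76 with IFNAR1 antibody. For the lower genes it was -0.56 and -0.65.

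The higher genes were divided by whether day 8 WT BMDMs of another experiment raised them after interferon-γ. Raised means an edgeR adjusted p under 0.05 and a log2 fold change over 1. Genes not tested in the day 8 libraries are in neither group. Of 108 tested that did, 18 fell and 1 rose (median -0.67). Of 103 tested in both experiments that were not raised by this rule, which may hold smaller rises, 12 fell and 2 rose (median -0.45). With IFNAR1 antibody against no antibody, which shares the IFNAR1 libraries, 9 of the 108 fell and 0 rose (median -1.07). Of the 103, 0 fell and 0 rose there (median -0.42), against 0.14% of all genes that fell. Over all 1324 genes tested that interferon-γ raised, 51 fell and 34 rose against control antibody, with a median of -0.03. For the counts against control antibody, the backgrounds are 1.69% for a fall and 2.34% for a rise over all genes.

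**Figure D4:**
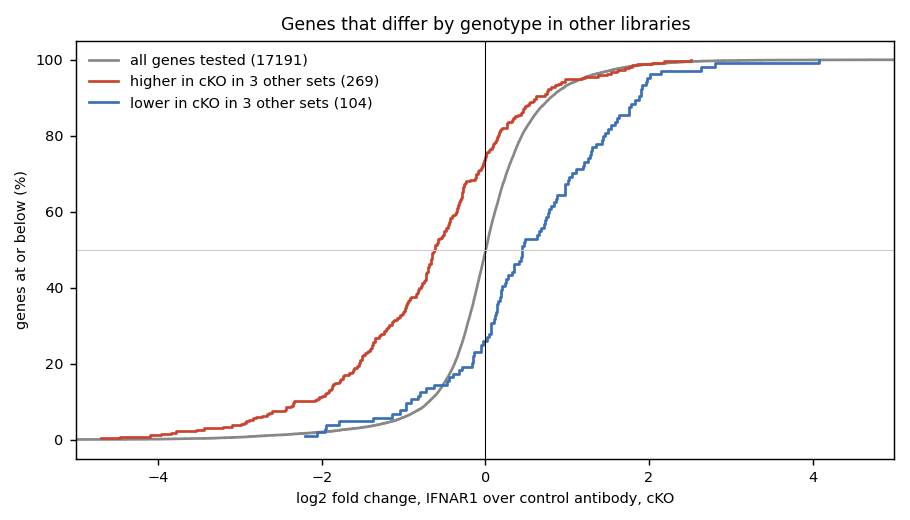
Cumulative share of genes (percent) against the log2 fold change with IFNAR1 antibody over control antibody in cKO BMDMs, for all 17191 genes tested, the 269 tested genes higher in cKO in 3 other sets of BMDMs and the 104 lower in them. The curve of the genes higher in cKO lies to the left of that of all genes (median -0.62 against 0.01) and the curve of the genes lower in cKO to the right (0.45). In WT, which is not drawn, the medians of the higher and lower genes were 0.14 and 0.49.

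With the antibody present, part of the difference between genotypes was still there. The following comparisons of cKO with WT share the cKO libraries above. Of 17191 genes, 765 (4.45%) differed between cKO and WT with control antibody, 495 higher (2.88%) and 270 lower (1.57%), and 116 (0.675%) with IFNAR1 antibody, 82 higher (0.477%) and 34 lower (0.198%). Among the 31 Oas, Ifit and Mx genes, 21 were higher in cKO with control antibody (median 2.01), against 2.88% of all genes, and 16 with IFNAR1 antibody (median 1.68), against 0.477%. In the latter arm 22 of the 31 were higher in cKO without overlap of the genotypes, where 4.19% of all genes were. Rsad2 was between 6.62 and 7.92 CPM in WT with IFNAR1 antibody, below every cKO library of that arm, and its log2 fold change of cKO over WT was 3.17 (edgeR adjusted p = 0.00022). That of Ifit3 was 5.36 (edgeR adjusted p = 0.00027) and that of Oasl2, which had fallen, was 3.89 (edgeR adjusted p = 0.0042). For Stat2 it was 0.57 (edgeR adjusted p = 0.318), with 48.8, 37.9 and 37.8 CPM in cKO and 29.0, 28.2 and 26.8 CPM in WT.

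The same antibodies were given to WT cells, in libraries that share none with the cKO arms. There 1700 genes (9.89%) changed, 526 falling (3.06%) and 1174 rising (6.83%), but none changed when only the 6 WT libraries were fitted (3890 at an unadjusted p under 0.05), and DESeq2 called 3158 in the 18 libraries. The interaction term, the antibody effect in cKO minus that in WT, was passed by none of the 17191 genes in edgeR's quasi-likelihood test (0%). At an unadjusted p under 0.05 it was passed by 975, and DESeq2 called 49. No gene can therefore be said to respond in one genotype more than in the other by the main test.

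Some ISGs had fold changes of similar size in both genotypes at different levels. Slfn5 went from 49.98, 51.1 and 53.4 CPM to 8.80, 11.7 and 17.3 CPM in WT, a log2 fold change of -2.03 (edgeR adjusted p = 0.0026) beside -2.31 in cKO. Irf9 had -1.04 in WT (edgeR adjusted p = 0.014) beside -0.99. Oasl2 had -2.05 (edgeR adjusted p = 0.043), from 6.23, 3.91 and 5.13 CPM to 0.577, 0.816 and 2.27 CPM, so its WT level with control antibody was under that of every cKO library with IFNAR1 antibody. Stat2 in WT was at 31.0, 30.2 and 33.9 CPM and at 29.0, 28.2 and 26.8 CPM, lower in every IFNAR1 library by a small margin (log2 fold change -0.18, edgeR adjusted p = 0.573). Its interaction was -1.01 ± 0.30 (unadjusted p = 0.0042, edgeR adjusted p = 0.574).

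The smallest adjusted p of the interaction belonged to Slc15a3 and Cd24a. Slc15a3, a lysosomal transporter of histidine and peptides, was at 310, 299 and 295 CPM with control antibody and at 142, 177 and 189 CPM with IFNAR1 antibody in cKO, and at 96.6, 96.4 and 100.3 CPM and 128, 102 and 129 CPM in WT (interaction -1.12 ± 0.17, edgeR adjusted p = 0.057). In cKO the arms were apart downward and in WT upward. Cd24a, a surface glycoprotein, was at 40.6, 69.9 and 71.9 CPM and at 14.4, 15.6 and 15.5 CPM in cKO, with 29.7, 24.6 and 24.5 CPM and 27.2, 26.7 and 21.3 CPM in WT (interaction -1.93 ± 0.29, edgeR adjusted p = 0.057). In the cKO cells without antibody Cd24a was at 13.5, 13.5 and 17.7 CPM, so it is the control antibody arm that stands apart from the rest.

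Most of the largest falls were in genes outside the interferon lists. Ly6a, Ly6c2 and Oasl2 are on those lists, and Rtp4, which is on none, is named among the ISGs below. Plbd1, a phospholipase B-like protein of granules, was at 53.8, 119 and 161 CPM with control antibody and at 2.79, 6.21 and 10.7 CPM with IFNAR1 antibody. No library came near the other arm (log2 fold change -4.10 ± 0.45, edgeR adjusted p = 0.00073). Rab15, a GTPase of endosomal recycling, fell from 8.22, 8.31 and 8.61 CPM to 0.190, 0.315 and 0.477 CPM, and Ly6c2, a marker of monocytes with a near copy beside it, from 9.52, 6.69 and 8.19 CPM to 0.127, 0.786 and 0.191 CPM (log2 fold changes -4.70 and -4.47, edgeR adjusted p = 0.00064 and 0.0030). Of 8 monocyte markers tested Ly6c2 alone fell and none rose, against 1.69% and 2.34% of all genes. Their median was -0.23, with 4 above 0. The sum over the 8 was between 249 and 400 CPM with control antibody and between 106 and 588 CPM with IFNAR1 antibody.

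Without antibody Plbd1, Rab15 and Ly6c2 were low too. Plbd1 was at 16.7, 15.7 and 21.9 CPM there, Rab15 at 0.587, 1.20 and 2.17 CPM and Ly6c2 at 0.640, 1.92 and 1.75 CPM. Each of them was higher with control antibody than without antibody, with log2 fold changes of 2.61, 2.68 and 2.53 (edgeR adjusted p = 0.015, 0.015 and 0.030). Lyz2, which carries the Cre, was between 46.1 and 81.9 CPM with control antibody, between 14.7 and 19.3 CPM with IFNAR1 antibody and between 11.9 and 15.8 CPM without antibody, against a mean of 23121 CPM in WT with control antibody. Of 16 macrophage markers tested Lyz2 fell (log2 fold change -1.94, edgeR adjusted p = 0.0040) and none rose, against 1.69% and 2.34% of all genes, and 1 rose without control replicate 1. Ly6a, known as Sca-1 and itself raised by interferon, differed in this respect, with 74.6, 63.1 and 37.4 CPM with control antibody, 4.25, 5.11 and 1.72 CPM with IFNAR1 antibody and 111, 79.5 and 47.3 CPM without antibody (log2 fold change against control antibody -3.96 ± 0.84, edgeR adjusted p = 0.020).

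Flrt3, Fgfr1, Acta2, Ptpn14, Flt1, Nedd4 and Ltbp2 were also among the 12 largest falls and lie on none of the gene lists. Flrt3, an adhesion protein, was at 78.2, 75.4 and 65.2 CPM with control antibody and at 0.824, 6.76 and 8.01 CPM with IFNAR1 antibody (log2 fold change -3.84 ± 0.70, edgeR adjusted p = 0.011). Fgfr1, a receptor of fibroblast growth factors, fell from 42.9, 55.1 and 78.5 CPM to 3.297, 8.57 and 11.2 CPM (log2 fold change -2.95, edgeR adjusted p = 0.0073). Acta2, smooth muscle actin, was at 38.5, 69.9 and 78.5 CPM and at 7.42, 15.6 and 11.2 CPM (log2 fold change -2.45, edgeR adjusted p = 0.046). All 3 were apart between the arms, as were Ptpn14, Flt1, Nedd4 and Ltbp2, with log2 fold changes from -3.21 to -2.95. Against no antibody Acta2 alone of these genes turned its direction (log2 fold change 0.059, edgeR adjusted p = 0.994).

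The sum over 11 markers of stromal cells was between 243 and 407 CPM with control antibody, between 69.0 and 119 CPM with IFNAR1 antibody and between 60.6 and 125 CPM without antibody. Of 9 tested, none passed the test, against 1.69% of all genes that fell and 2.34% that rose. The median was -2.11, and 8 were lower without overlap, where 14.5% of all genes were. Col1a1, a fibrillar collagen chain, was at 83.2, 149 and 156 CPM and at 24.2, 46.4 and 22.5 CPM (edgeR adjusted p = 0.257). The part of stromal cells in the falls above was not tested. Markers of B cells summed to at most 8.33 CPM, those of T and NK cells to at most 4.12 CPM and those of erythroid and mast cells to at most 2.35 CPM in any library of the 2 antibody arms. Neutrophil markers summed to 107 to 217 CPM with control antibody and 115 to 142 CPM with IFNAR1 antibody. Without antibody they summed to 76.0 to 98.3 CPM. Dendritic cell markers summed to 226 to 284 CPM with control antibody and 216 to 314 CPM with IFNAR1 antibody.

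Among the genes that rose, the proliferation list had the most members, as 20 of 30 genes rose and none fell (median 1.75), against 2.34% of all genes. Mki67, the proliferation marker Ki-67, was at 99.2, 49.0 and 58.8 CPM with control antibody and at 687, 383 and 259 CPM with IFNAR1 antibody, without overlap (log2 fold change 2.67 ± 0.45, edgeR adjusted p = 0.0073). Ube2c, the ubiquitin-conjugating enzyme of the anaphase-promoting complex, was at 5.77, 2.53 and 3.53 CPM and at 81.0, 25.6 and 16.8 CPM (log2 fold change 3.29 ± 0.69, edgeR adjusted p = 0.019). IFNAR1 replicate 1 was the highest in both genes. Top2a, Ccna2, Cdk1 and Kif11, of chromosome untangling, cyclin-dependent kinase activity and the spindle, rose by log2 fold changes of 2.24, 2.54, 1.59 and 2.20, and the replication-coupled histone genes Hist1h3d and Hist1h3e by 1.37 and 1.06. Both histone genes lost their call without control replicate 2, control replicate 3 or IFNAR1 replicate 1.

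In cells without antibody the same genes were not low. Mki67 was at 422, 403 and 267 CPM and Ube2c at 27.9, 28.4 and 18.4 CPM, within the range with IFNAR1 antibody. The sum over the 30 genes was between 1291 and 1990 CPM without antibody, between 532 and 862 CPM with control antibody and between 1103 and 2733 CPM with IFNAR1 antibody. WT showed the same layout of arms, with 2025 to 2256, 559 to 1074 and 1858 to 4667 CPM, and 27 of the 30 genes rose there with IFNAR1 against control antibody, against 6.83% of all genes. The number that rose in cKO depended on single libraries. It was 1 without control replicate 2, 0 without control replicate 3, 1 without IFNAR1 replicate 1 and between 11 and 21 without each of the others, while the median stayed between 1.31 and 2.10.

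Immediate early genes, which are transcribed within minutes of a stimulus, had 7 of 18 members that rose and none that fell, against 2.34% and 1.69% of all genes (median 0.92). Egr1 was at 42.2, 54.0 and 31.0 CPM with control antibody and at 1079, 211 and 152 CPM with IFNAR1 antibody, where replicate 1 stood far above the others (log2 fold change 3.51 ± 0.71, edgeR adjusted p = 0.017). Egr3 was at 2.22, 3.07 and 1.56 CPM and at 41.1, 70.1 and 22.1 CPM (log2 fold change 4.32 ± 0.57, edgeR adjusted p = 0.0029), and Egr2 rose by 3.09. The others were Fosb, Klf2, Ier2 and Atf3, with log2 fold changes of 1.38, 1.42, 1.49 and 0.96. Without antibody Egr3 was at 13.6, 21.7 and 16.5 CPM, between the arms. In each fit without control replicate 2, control replicate 3 or IFNAR1 replicate 1, 3 members rose. Egr1 then had edgeR adjusted p = 0.071, 0.103 and 0.077, and Egr2 and Egr3 passed the test in each of these fits. With IFNAR1 antibody against no antibody, none of the 18 passed the test (median 0.37), where 0.145% of all genes did.

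**Figure D5:**
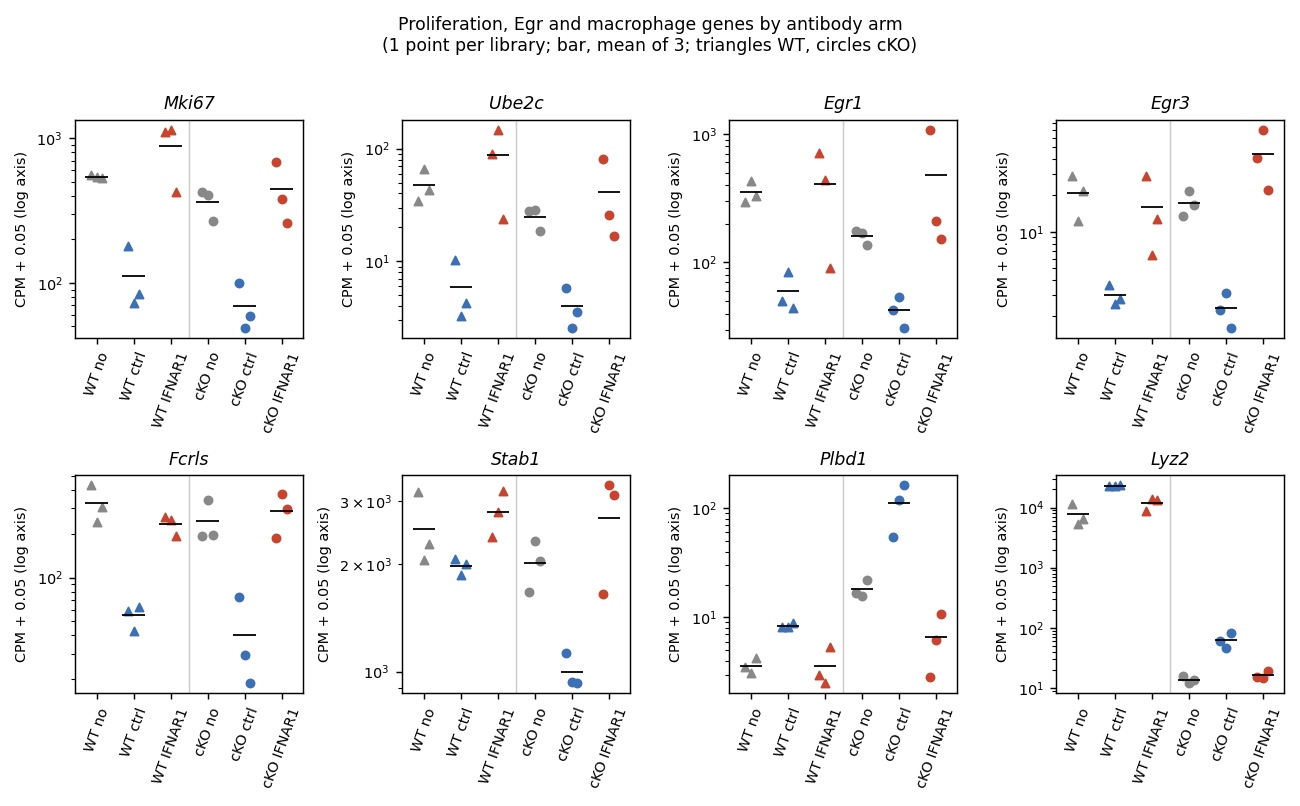
CPM on a log axis of 8 genes outside the interferon lists in the 18 libraries of the antibody experiment, 3 per arm (triangles WT, circles cKO, bars the mean of an arm; 0.05 CPM was added to each value). For Mki67, Ube2c, Egr1, Egr3, Fcrls and Stab1 the 3 cKO libraries with control antibody are lower than those of either other cKO arm, and for Plbd1 and Lyz2 they are higher.

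Of 15 chemokine genes tested 5 rose and none fell, against 2.34% and 1.69% of all genes (median 0.79). Ccl4, which attracts T cells and monocytes, was at 28.3, 23.7 and 23.2 CPM with control antibody and at 89.2, 68.1 and 50.2 CPM with IFNAR1 antibody (log2 fold change 1.46 ± 0.22, edgeR adjusted p = 0.0044). Ccl2, the main attractant of monocytes, was at 62.4, 47.2 and 46.8 CPM and at 96.4, 235 and 129 CPM (log2 fold change 1.55, edgeR adjusted p = 0.039). Cxcl10, which is commonly counted as an ISG, was at 1.28, 1.45 and 1.56 CPM and at 9.26, 6.45 and 5.53 CPM (log2 fold change 2.33 ± 0.53, edgeR adjusted p = 0.025). All IFNAR1 libraries were above all control libraries in these genes. Without antibody Cxcl10 was at 12.3, 8.09 and 2.66 CPM. Ccl3 and Ccl7 made up the 5. Without control replicate 2 or without control replicate 3 only Ccl4 rose. The list had 2 genes that rose without control replicate 1, 3 without IFNAR1 replicate 1, 3 without IFNAR1 replicate 2 and 4 without IFNAR1 replicate 3. With IFNAR1 antibody against no antibody, none of the 15 passed the test (median 0.17), where 0.145% of all genes did. The median with control antibody against no antibody was -0.49. In WT 4 of the 15 rose with IFNAR1 against control antibody, against 6.83% of all genes.

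Of 11 markers of alternatively activated and resident macrophages 5 rose and 1 fell, against 2.34% and 1.69% of all genes (median 0.90). The number that rose was 2 without control replicate 2, 2 without control replicate 3, 3 without IFNAR1 replicate 2, 3 without IFNAR1 replicate 3 and 4 without each of the others. Egr2, Cbr2, Clec10a, Tgm2 and Stab1 rose, by 3.09, 2.64, 0.90, 0.76 and 1.44 on the log2 scale, and the mannose receptor gene Mrc1 missed the threshold (1.21, edgeR adjusted p = 0.051). Chil3, a chitinase-like protein, fell from 3.72, 4.70 and 7.68 CPM to 1.14, 0.629 and 0.858 CPM (log2 fold change -2.58, edgeR adjusted p = 0.017), and it lost its call without control replicate 2, control replicate 3 or IFNAR1 replicate 2. Fcrls, an Fc receptor-like scavenger receptor that is not on this list, was at 72.9, 29.5 and 18.7 CPM with control antibody and at 186, 377 and 298 CPM with IFNAR1 antibody (log2 fold change 2.81 ± 0.42, edgeR adjusted p = 0.0042). Stab1, the scavenger receptor stabilin-1, was at 1129, 938 and 926 CPM and at 1652, 3330 and 3124 CPM (log2 fold change 1.44 ± 0.24, edgeR adjusted p = 0.0066). The arms were apart in both, and without antibody Fcrls was at 193, 339 and 196 CPM and Stab1 between 1677 and 2327 CPM. With IFNAR1 antibody against no antibody, none of the 11 markers passed the test (median 0.36), where 0.145% of all genes did.

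Set against no antibody, the IFNAR1 antibody changed few genes, and these values share the IFNAR1 libraries with the main comparison. In cKO 25 genes changed (0.145%), 24 falling (0.14%) and 1 rising (0.00582%). Many were ISGs, among them Slfn5 (-2.31, edgeR adjusted p = 0.010), Stat2 (-1.55, 0.010), Oas1a (-1.96, 0.010), Ifi44 (-4.10, 0.028), Oasl2 (-3.16, 0.036), Rtp4 (-3.58, 0.036), Ifi204 (-1.69, 0.036) and Usp18. Of the Oas, Ifit and Mx list 8 of 31 fell, with a median of -1.37, and 15 of 31 were lower without overlap, where 6.77% of all genes were. Ighm, the heavy chain of immunoglobulin M, was the gene that rose, from 0.640, 1.84 and 0.561 CPM to 16.2, 7.23 and 3.43 CPM (log2 fold change 3.19, edgeR adjusted p = 0.043), and it was at 0.389, 0.723 and 0.104 CPM with control antibody. Without IFNAR1 replicate 1 the counts were 19 falling and 0 rising.

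The control antibody on its own changed 251 genes against no antibody in cKO (1.46%), 114 rising (0.663%) and 137 falling (0.797%). Of the 31 Oas, Ifit and Mx genes, Mx1 fell (log2 fold change -1.77, edgeR adjusted p = 0.033) and Ifi27 rose (0.56, edgeR adjusted p = 0.048). The median of the 31 genes was -0.77, against 0.01 for all genes. ISG15 conjugation, the immunity-related GTPases and the Schlafen family had medians of -0.81, -0.69 and -0.66, without a call. Mx1 was at 63.5, 49.0 and 19.2 CPM without antibody, at 13.8, 13.6 and 11.2 CPM with control antibody and at 16.7, 13.4 and 16.2 CPM with IFNAR1 antibody, so both antibody arms were below the untreated one. Slfn5, at 198, 174 and 114 CPM without antibody, overlapped its values with control antibody and lay above every library with IFNAR1 antibody.

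Single libraries carried many of the calls. Without control replicate 2 the comparison had 51 genes that fell and 44 that rose, without control replicate 3 it had 47 and 30, and without IFNAR1 replicate 1 it had 79 and 103. Without IFNAR1 replicate 2 it had 128 and 242. In the Oas, Ifit and Mx list the number that fell was 1 without control replicate 2, 3 without control replicate 3, 1 without IFNAR1 replicate 2 and 4 to 6 without each of the others. Ifi44 had edgeR adjusted p = 0.086 without control replicate 2, with a log2 fold change of -2.66. Slfn5, Plbd1, Rab15, Ly6c2, Cd24a, Egr2 and Egr3 passed the test in each of these fits.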

How the data were processed

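Counts per gene were deposited as made by the authors with STAR, after trimming with cutadapt and alignment to mm10 (per the submitters' processing notes), without normalization. The column of counts without regard to strand was used, so a gene and a partner on the other strand are not told apart. The annotation release is not given in the sources used here. Of 54146 genes listed, the 17191 that passed edgeR's filterByExpr (smallest count 10, smallest total count 15) were tested over all 18 libraries of the antibody experiment in one model, with TMM scaling. The test was edgeR's quasi-likelihood F-test (R 4.3.3, edgeR 4.0.16 and limma 3.58.1), and calls were made where the Benjamini-Hochberg adjusted p was under 0.05. The lists, tests and genes to be named were chosen with earlier results of these data known. Genes were named if they are the targeted or pathway genes, among the 12 largest falls or rises of genes whose arms do not overlap and whose log2 CPM averages at least 3, among the 4 largest calls or 2 most abundant genes without a call of a list, or among the 6 smallest adjusted p of the interaction. Genes named beyond that rule were picked after their values were seen, as examples of their list or of the comparison with no antibody. The method was tested on simulated data. DESeq2 1.42.0, other filters and scalings, the strand column, a minimum fold, fewer libraries, a replicate block and each library left out were tried as alternatives. No duplicated library was found. A further gene of the pathway is not reported here.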

Additional observations from a re-analysis of the deposited data

How the results depend on the processing

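Against the 290 genes that fell and 402 that rose in cKO, DESeq2 gave 538 and 728 (1266 in all), and a test against a log2 fold change of at least 1 gave 6 and 4 (10 in all). With only the 6 cKO libraries in the model 135 fell and 72 rose (207 in all), and the cause was not tested. Leaving out each library in turn gave 47 to 265 genes that fell, 30 to 506 that rose and 77 to 722 in all. Control replicates 2 and 3 and IFNAR1 replicates 1 and 2 each moved a count by more than 1.5 times, as given in the report. In WT, against 526 and 1174, DESeq2 gave 1181 and 1977 (3158 in all), the minimum fold 0 and 9 (9 in all), and only the 6 WT libraries 0 and 0 (0 in all). Leaving out each library in turn gave 37 to 3165 that fell, 253 to 3323 that rose and 290 to 6488 in all. The interaction, passed by 0 genes in edgeR, was passed by 36 with a lower and 13 with a higher value by DESeq2 (49 in all), by 10 lower without a filter on low counts and by 2 lower with a mean of at least 1 CPM. Leaving out each library gave 0 to 4 lower, 0 to 1 higher and 0 to 5 in all.

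Of 69 named genes with a call in cKO, none turned its direction under the alternatives listed in the methods, 7 kept the call in all of them and 16 in every fit with 1 library left out.

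Other references for the antibody were added after seeing the data. Against no antibody, 24 genes fell and 1 rose in cKO (25 in all), 0 and 0 changed in WT (0 in all), and 1 passed the interaction with a lower value. Against the mean of the control and no antibody arms, 35 fell and 31 rose in cKO (66 in all), 15 and 215 in WT (230 in all), and 1 passed the interaction with a lower value. Against no antibody 9 named genes turned their direction without a call. Their log2 fold changes were 0.48 for Cnn3, -0.12 for Cxcl10, -0.17 for Rrm1, 0.024 for Cd24a, 0.25 for Lyz2, -0.22 for Rrm2, -0.12 for Hist1h3e, -0.19 for Hist1h3d and 0.059 for Acta2.

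Arms share replicate numbers, but the labels do not say that a number marks a shared animal or batch. The correlation of the deviations of same-numbered control and IFNAR1 libraries was 0.14, 0.091 and 0.092 in cKO and 0.029, 0.076 and 0.169 in WT, so the numbers were not taken as pairs, although each cKO library correlated best with its own number. With the replicate block 517 genes fell and 569 rose in cKO (1086 in all), 969 fell in WT, and 7 passed the interaction with a lower value.

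The smallest library had 5295144 counts on genes, so genes of a few CPM rest on few counts there. With 3 libraries an arm, a call that was missed does not show that a gene did not change.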
